A study of Mus musculus with 9 samples.

Results

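Crisp1, Crisp3 and Crisp4 encode cysteine-rich secretory proteins (CRISPs), and their transcripts were followed across the segments, ages and cell types of the mouse epididymis. They were chosen by gene symbol, as 3 of the 32195 gene rows of a single-cell matrix of unique molecular identifiers (UMIs), each of which marks 1 captured transcript. CRISPs belong to the CAP superfamily of secreted proteins, and they join a CAP domain to a cysteine-rich C-terminal domain that is known to act on ion channels. Crisp1 and Crisp4 are known as androgen-dependent products of the epididymal epithelium that are secreted into the lumen and coat sperm during transit, whereas mouse Crisp3 is best known from the salivary gland. The principal cell, which is the main secretory cell of the duct, changes its secretions from the caput, where sperm enter, through the corpus to the cauda, where sperm are stored.

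The animals were untreated C57BL/6 male mice (C57BL/6J in the study's methods) with no engineered allele. The caput, corpus and cauda of 5 mice at postnatal day 42 (P42) were pooled into 1 library per segment, and those of 10 mice at day 56 (P56) into 2 pools of 5 mice, called replicate 1 and replicate 2, which gave 9 libraries. Values of single mice can therefore not be separated, and the spread between ages rests on the P56 pairs because P42 had 1 library per segment. The P42 libraries formed a batch of their own in the study's list of samples, so age cannot be told apart from batch or pool of mice.

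The 40726 cells kept after quality control and removal of globin-rich cells held 258284304 UMIs, with a median per library of 3061 to 7638.5 UMIs per cell. Cells were gated by the UMIs of marker genes into types called principal-like, basal-like and so on, and 15741 cells passed as principal-like (333 to 2695 per library, median 5995 to 8448 UMIs). Of the 12 epithelial genes behind this gate, 11 or 12 had UMIs in the principal-like cells of every library, but their summed level (28.1 per 10000 UMIs) was below that in basal-like (34.5) and clear/narrow-like cells (29.7), so the gate rests on the absence of the other markers as much as on these genes. The segment labels were checked with Lcn8, a caput lipocalin, which lay at 13902 to 21103 CPM (counts of a gene per 1000000 UMIs of the summed cells) in the principal-like cells of the 3 caput libraries and between 8.02 and 16.5 CPM in the 6 others. Only 114 of 40569 barcode sequences occurred in more than 1 library. The P42 cauda library stood apart, since the 11 myoid and fibroblast markers made up 427 of every 10000 UMIs there, against 5.31 to 78.6 in the other libraries. In its principal-like cells the level was still 108, against 1.79 to 7.40 elsewhere, and all 11 markers had UMIs in every library. The 11 macrophage/monocyte markers were also high in these cells, at 7.08 per 10000 UMIs against 0.385 to 1.35 elsewhere. The gate itself was looser there, since its cutoffs follow the marker levels of each library. Principal-like cells had to lie under 579 per 10000 UMIs of myoid and fibroblast markers in the P42 cauda, against 19.6 to 38.3 in the other libraries. For macrophage/monocyte markers the cutoff was 32.8 in this library against 5 elsewhere. Calls of Crisp1, Crisp3 and Crisp4 between segments or cell types that changed without this library are given without it, while a change with age in the cauda cannot be had without it.

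The loci were read from the GRCm38 annotation. Crisp1 (ENSMUSG00000025431) lies at chr17:40293758-40319207 and Crisp3 (ENSMUSG00000025433) at chr17:40221777-40242288, both on the minus strand with 8 exons. Crisp4 (ENSMUSG00000025774) lies on another chromosome, at chr1:18115191-18145902, also on the minus strand and with 8 exons. The annotated transcripts of Crisp1 and Crisp3 (1416 and 1417 bases) were identical at 1272 of 1397 aligned bases (91.1%), and the Crisp1 and Crisp4 transcripts at 61.6%. In the last 500 bases, which hold the 3′ end that the assay captures, Crisp1 and Crisp3 differed at 32 of 487 aligned bases, and the longest identical run was 70 bases. No stretch of 100 bases was shared. A read that covers only a shared stretch could be counted for either gene, while a full-length read, which per the labels is longer than any shared run, would hold a differing base. How much of each read was left after trimming, and how mismatches were treated in counting, was not analysed here, so the low Crisp3 counts reported below are uncertain.

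The 250 bases before the annotated start of each gene are shown because Crisp1 and Crisp3 are nearly the same there while their transcript levels are far apart, and because Crisp4, with the opposite segment pattern, has an unlike sequence. They were taken from RefSeq (GRCm38.p6, minus strand, 5′ to 3′). In the Crisp1 and Crisp3 sequences, capitals mark the 11 bases at which they differ, and the Crisp4 sequence is in lower case throughout. The windows are chr17:40319208-40319457, chr17:40242289-40242538 and chr1:18145903-18146152.
Crisp1: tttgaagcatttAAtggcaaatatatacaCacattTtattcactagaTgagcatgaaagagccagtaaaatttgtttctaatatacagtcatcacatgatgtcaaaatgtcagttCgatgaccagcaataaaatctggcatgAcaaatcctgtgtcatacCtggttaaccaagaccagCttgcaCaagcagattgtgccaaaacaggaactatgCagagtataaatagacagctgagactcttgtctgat
Crisp3: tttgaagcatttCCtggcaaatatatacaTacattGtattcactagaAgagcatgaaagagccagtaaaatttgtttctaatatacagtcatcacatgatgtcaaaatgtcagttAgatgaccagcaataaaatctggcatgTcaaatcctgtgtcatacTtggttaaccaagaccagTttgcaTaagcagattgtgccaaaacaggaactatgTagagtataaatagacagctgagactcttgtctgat
Crisp4: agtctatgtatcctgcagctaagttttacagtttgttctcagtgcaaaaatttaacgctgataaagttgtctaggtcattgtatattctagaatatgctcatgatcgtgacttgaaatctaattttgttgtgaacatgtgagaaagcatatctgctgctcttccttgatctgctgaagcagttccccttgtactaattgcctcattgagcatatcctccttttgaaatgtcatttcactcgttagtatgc

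The Crisp1 and Crisp3 windows were identical at 239 of 250 bases (95.6%), and the longest identical run was 67 bases. Both windows held the TATA box letters TATAAA on the gene strand, from base -31 to base -26 before the start, which 758 of 32851 windows of the same length (2.31%) held within 40 bases of the start and 7.59% held anywhere. The Crisp4 window did not hold these letters. Over 224 aligned bases, with gaps allowed, Crisp4 was 59.8% identical to Crisp1, and the longest identical run was 5 bases. Set base by base without gaps, the 2 windows differed at 189 of 250 bases. These matches describe letters and not binding.

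Along the duct, Crisp1 rose from the caput to the corpus and cauda, and Crisp4 fell. In principal-like cells Crisp1 was measured at 154 CPM in the P42 caput, and at 305 and 509 CPM in the caput of P56 replicates 1 and 2. It reached 12034, 20843 and 20508 CPM in the corpus of the same pools. In the cauda it reached 13573, 27335 and 30286 CPM. Every corpus and cauda library lay above every caput library, while the corpus and the cauda overlapped. Crisp1 made up 1.20% to 3.03% of all UMIs of principal-like cells in the corpus and cauda and ranked between 3 and 6 among all genes, whereas in the caput it ranked between 243 and 884.

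Within the pools Crisp1 was 78.2, 68.2 and 40.3 times as high in the corpus as in the caput (P42, P56 replicate 1 and P56 replicate 2), and the mean rose from 323 ± 178 CPM in the caput to 17795 ± 4992 CPM in the corpus (SD, n = 3 libraries each). The log2 fold change was 5.98 ± 0.34 (SE, adjusted p = 2.23e-06 from the quasi-likelihood test of edgeR, pool as block). Of the 16066 genes tested, 14.1% were called as higher in the corpus. From the corpus to the cauda Crisp1 changed by 1.13, 1.31 and 1.48 times within pools, a log2 fold change of 0.44 ± 0.28 that was not called (adjusted p = 0.317). Between caput and cauda the log2 fold change was 6.42 ± 0.35 (adjusted p = 1.84e-06), with 13.8% of genes called as higher in the cauda.

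Crisp4 was highest in the caput, with 619 CPM at P42 and 741 and 885 CPM in the P56 replicates. The corpus held 168, 325 and 309 CPM. In the cauda 31.7, 79.5 and 62.9 CPM remained. The 3 segments did not overlap, and each step was seen in all 3 pools. Crisp4 fell 3.68, 2.28 and 2.86 times from caput to corpus within pools and a further 5.31, 4.08 and 4.92 times from corpus to cauda. Segment means were 748 ± 133, 267 ± 86.2 and 58.0 ± 24.3 CPM (SD, n = 3). The log2 fold changes were -1.48 ± 0.25 from caput to corpus (adjusted p = 0.00143) and -2.12 ± 0.26 from corpus to cauda (adjusted p = 0.000653, edgeR), where 13.7% and 7.62% of genes were called as lower. Between caput and cauda it was -3.60 ± 0.27 (adjusted p = 1.15e-05), with 14.3% of genes called as lower.

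**Figure D1:**
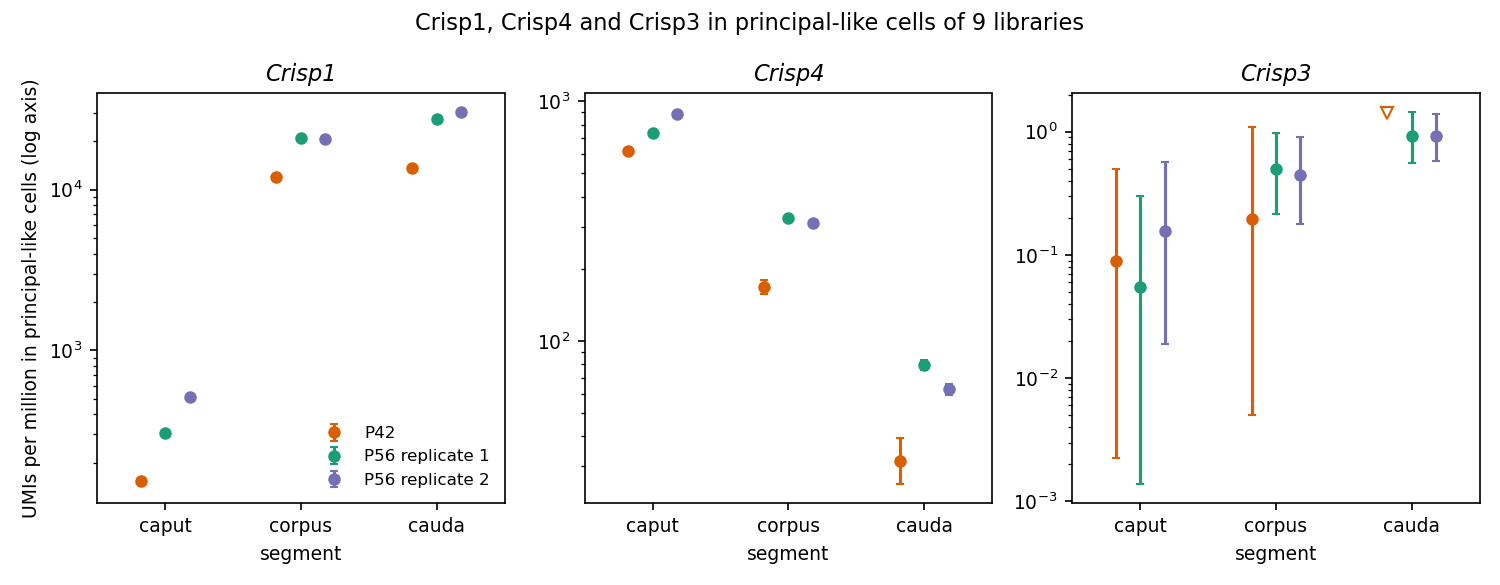
CPM of Crisp1, Crisp4 and Crisp3 (log axes that differ between panels) in the principal-like cells of each library, by segment and coloured by pool. Bars are exact Poisson 95% intervals, which cover counting error only, and the open triangle is the upper limit where no Crisp3 UMI was found. Crisp1 steps up from 154 to 509 CPM in the caput to at least 12034 CPM in the corpus, while Crisp4 steps down at each segment.

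When all kept cells of a library were summed, which mixes the amount of RNA per cell with the number of cells of each type so that fewer cells and less RNA per cell cannot be told apart, the pattern was the same in direction for Crisp4 and from caput to corpus for Crisp1. Crisp1 reached 105, 285 and 429 CPM in the caput and 4100 to 25958 CPM in the other segments. Its corpus to caput log2 fold change was 5.95 ± 0.47 (adjusted p = 0.000367, edgeR, 8.61% of genes called as higher). Corpus and cauda were not distinguished (0.17 ± 0.39, adjusted p = 0.845). The P42 cauda library, with 4100 CPM, lay below the P42 corpus (0.573 times), whereas in both P56 pools the cauda lay above the corpus (1.28 and 1.50 times). Crisp4 lay at 426, 661 and 684 CPM in the caput, at 105, 281 and 265 CPM in the corpus and at 10.1, 63.3 and 53.3 CPM in the cauda. Its fall from caput to corpus missed the threshold in all cells (-1.46 ± 0.42, adjusted p = 0.0502) and was called without the P42 pool (-1.08) and without the P42 cauda library (-1.42). Its fall from corpus to cauda was called (-2.41 ± 0.44, adjusted p = 0.0194, 5.57% of genes called as lower) and was not called without P56 replicate 1 (-2.71) or without P56 replicate 2 (-2.49).

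The balance of the secreted pair thus turned over within the duct. The summed principal-like cells of the caput held 0.248, 0.412 and 0.575 Crisp1 UMIs per Crisp4 UMI in the 3 pools. In the corpus the ratios were 71.5, 64.2 and 66.3, and in the cauda 428, 344 and 482. Per kilobase of annotated transcript these ratios ran from 0.220 to 0.509 in the caput, from 56.8 to 63.2 in the corpus and from 304 to 426 in the cauda. Each UMI marks 1 captured transcript whatever its length, so the ratios to be read are those without this division. The corpus ratio differed least between pools, although the level of each gene there was lower at P42 than at P56.

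Within the caput the genes also differed between classes of principal-like cells. The classes were set by the pair of genes with the highest scaled level in a cell (at least 2 times the next pair), and neither member was among these genes. Crisp4 was highest in cells led by Cst12, an epididymal cystatin, and Lcn8, at 899, 960 and 1081 CPM (552, 1124 and 798 cells). It was lower in cells led by Lcn5 and Defb30, a lipocalin and a beta-defensin (538, 714 and 770 CPM in 170, 422 and 328 cells). It was lowest in cells led by Lypd8 and Defb18 (192, 290 and 391 CPM in 302, 482 and 249 cells). This order was the same in all 3 pools.

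Crisp1 had another order in the same cells. It was highest in the Lcn5 and Defb30 class, at 573, 450 and 880 CPM, followed by the Cst12 and Lcn8 class with 100, 368 and 521 CPM. The Lypd8 and Defb18 class held 50.1, 72.9 and 112 CPM. The gap between the first and the second class was 573 against 100 CPM at P42 and 450 against 368 CPM in P56 replicate 1. Lcn5 and Defb30 were not confined to the caput. Their means in principal-like cells were 5049 and 2283 CPM in the caput and 1403 and 966 CPM in the corpus, where Crisp1 is high. Whether cells from the border with the corpus fell in this class was not tested. Another 203, 314 and 163 cells had no leading pair and held 76.5, 268 and 397 CPM of Crisp1 and 498, 705 and 918 CPM of Crisp4. Macrophage/monocyte-like cells of the same libraries, which should make neither gene, held 72.9, 327 and 434 CPM of Crisp1 and 487, 614 and 746 CPM of Crisp4. The Lypd8 and Defb18 class lay below this macrophage/monocyte-like level for both genes in each pool, and its values are not read as expression. The level is therefore not a floor for free RNA in principal-like cells, which was not measured. For Crisp1 the cells with no leading pair lay near or below the level (76.5, 268 and 397 CPM), and the Cst12 and Lcn8 class lay little above it (100, 368 and 521 CPM). For Crisp4 the Lcn5 and Defb30 class lay little above it (538, 714 and 770 CPM). All of these values lay above those of the Lypd8 and Defb18 class in each pool. With 3 libraries the classes were compared by their order alone and not tested.

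**Figure D2:**
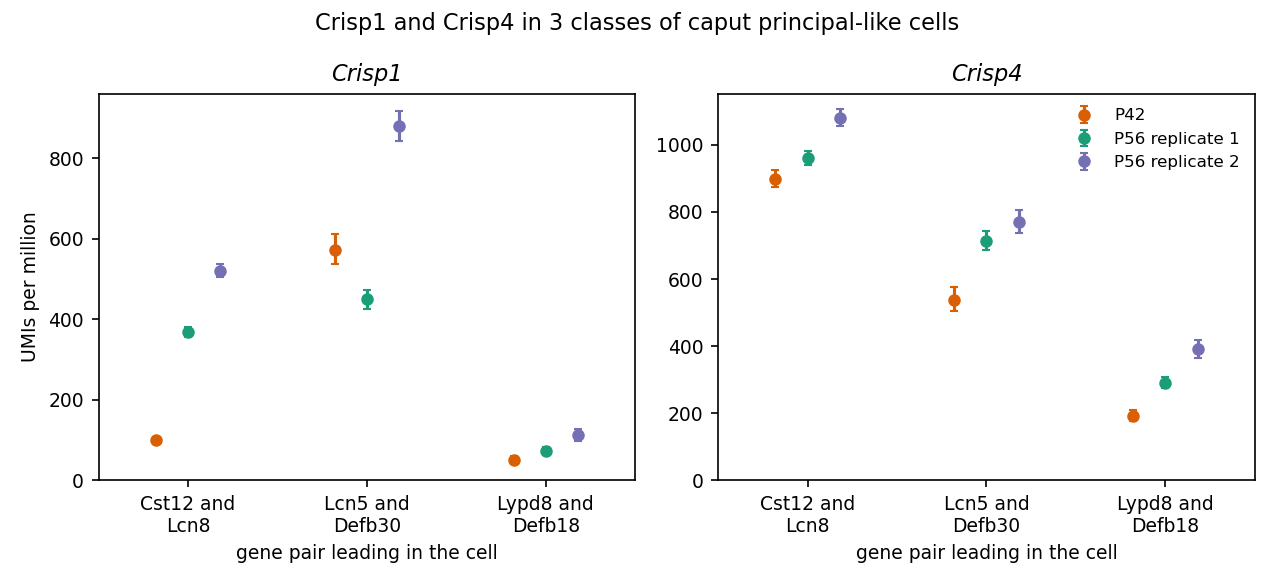
CPM of Crisp1 and Crisp4 in caput principal-like cells split by the leading gene pair, with 1 point per pool and exact Poisson 95% intervals. Crisp4 falls from the Cst12 and Lcn8 class to the Lypd8 and Defb18 class in each pool, while Crisp1 is highest in the Lcn5 and Defb30 class in each pool.

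To compare single cells at equal depth, each cell was thinned to 1000 UMIs, which left out 0 to 2 principal-like cells per library. In the caput 9.54%, 20.3% and 25.5% of principal-like cells then held a Crisp1 UMI. In the corpus the shares were 99.2%, 99.6% and 99.9%, and in the cauda 99.7%, 100% and 100%. Crisp4 was found in 39.9%, 49.3% and 55.6% of caput cells, 12.5%, 25.0% and 22.9% of corpus cells and 3.32%, 6.57% and 6.01% of cauda cells. With all UMIs the caput shares were 36.7%, 55.4% and 65.4% for Crisp1 and 86.3%, 91.9% and 94.1% for Crisp4.

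These shares have to be set beside free RNA, since transcripts of broken cells enter every droplet or well. Macrophage/monocyte-like cells, which should make neither gene, held Crisp1 in 8.97%, 19.4% and 26.5% of caput cells after the same thinning, and Crisp4 in 29.7%, 41.9% and 48.7%. Median depth was 5267.5 to 6715 UMIs in these cells and 7215.5 to 8448 UMIs in principal-like caput cells. The Crisp1 share of principal-like caput cells was thus at the level of this background and is not read as expression, while that of Crisp4 was above it in each pool. Summed levels did not give the same contrast between the genes. By level, macrophage/monocyte-like caput cells held 47.4%, 107% and 85.3% of the principal-like Crisp1 and 78.6%, 82.9% and 84.4% of the Crisp4. In the corpus and cauda the macrophage/monocyte-like shares were 80.4% to 100% for Crisp1 and 1.02% to 17.1% for Crisp4, so the Crisp1 shares near 100% do not by themselves separate principal cells from background. The 10% of principal-like cells with the most Crisp1 UMIs held 78.0%, 57.8% and 56.6% of them, against 20.1% to 30.6% in the corpus and cauda libraries, and against 18.6%, 19.8% and 18.7% of all caput UMIs in the deepest 10% of the cells. For Crisp4 the caput values were 30.3%, 26.8% and 26.2%, and those of the cauda, where Crisp4 is sparse, 75.9%, 55.9% and 51.9%. A high share thus also came with few UMIs, and the variance of thinned Crisp1 counts over their mean overlapped between the caput (1.98 to 5.11) and the other segments (3.06 to 4.41). In macrophage/monocyte-like caput cells the top 10% held 58.2%, 63.6% and 54.0% of the Crisp1 UMIs. Across principal-like cells of 1 library Spearman's rho of Crisp1 and Crisp4 lay between -0.05 and 0.10 (9 libraries of 331 to 2695 thinned cells). The cells of a library share free RNA and depth. They averaged 0.0332 to 0.877 Crisp4 UMIs after thinning, and with counts this low rho cannot show whether the genes are related.

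**Figure D3:**
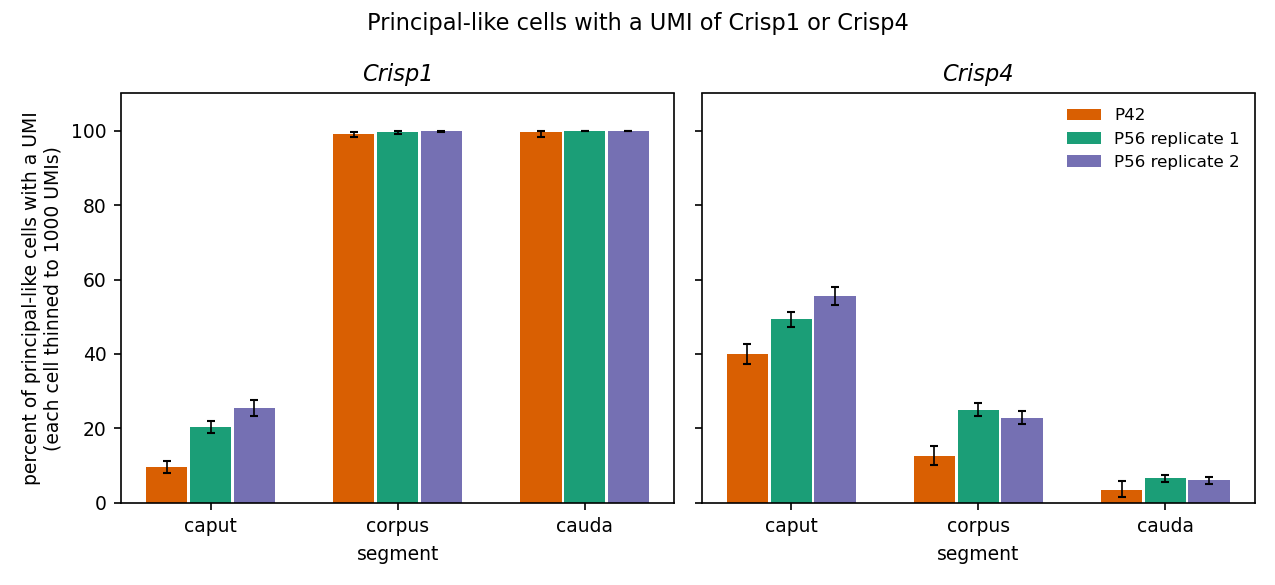
Share of principal-like cells with at least 1 Crisp1 or Crisp4 UMI after each cell was thinned to 1000 UMIs, by segment and pool, with exact binomial 95% intervals that cover counting error only. Crisp1 runs from 9.54% to 25.5% in the caput to at least 99.2% in the corpus and cauda, and Crisp4 from 39.9% to 55.6% in the caput down to 3.32% to 6.57% in the cauda.

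Across cell types, the median share of Crisp1 and of Crisp4 relative to principal-like cells lay under 100% in all types but 1 (Crisp4 in halo/T-like cells, 102%), and each gene exceeded the principal-like level in 5 of 61 pairs of library and type. As a share of the principal-like level of the same library, Crisp1 had a median of 47.0% in basal-like cells (28.2% to 63.6%, 9 libraries) and 41.6% in clear/narrow-like cells, the proton-secreting cells of the duct (20.4% to 82.6%, 9 libraries). It was 78.8% in macrophage/monocyte-like cells (19.1% to 107%), 64.2% in myoid/fibroblast-like cells (8.73% to 104%) and 83.1% in sperm-like cells (33.6% to 137%, 6 libraries). Crisp4 followed, with 52.2%, 43.2%, 81.8%, 59.3% and 88.8% in the same types. The medians of the basal-like and clear/narrow-like cells, which are epithelial as principal cells are, were thus lower than those of the macrophage/monocyte-like and sperm-like cells. Endothelial-like cells, which are not epithelial, had similarly low medians of 44.4% for Crisp1 and 44.7% for Crisp4 (8 libraries). The order of the types was not tested.

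By edgeR with the library as a block, Crisp1 was higher in principal-like cells by a log2 fold change of 1.64 ± 0.18 against basal-like cells (adjusted p = 1.68e-11). Against clear/narrow-like cells it was higher by 1.74 ± 0.18 (adjusted p = 2.10e-12), and against endothelial-like cells by 2.05 ± 0.20 (adjusted p = 8.20e-14). The Crisp4 values were 1.65 ± 0.16, 1.68 ± 0.15 and 1.62 ± 0.18. Crisp1 was called against 6 of the 8 other types and Crisp4 against 5, where the share of genes called as higher in principal-like cells was 8.60% against basal-like, 6.94% against ciliated-like, 8.41% against clear/narrow-like, 13.4% against endothelial-like, 6.33% against halo/T-like, 0.668% against macrophage/monocyte-like, 4.12% against myoid/fibroblast-like and 0.414% against sperm-like cells. These shares depend on the scaling. With TMM factors of 1 the genes called as higher went from 1184 of 2344 calls to 440 of 2396 against basal-like, from 956 of 2422 to 189 of 2464 against ciliated-like, from 1158 of 2127 to 445 of 2204 against clear/narrow-like, from 1843 of 3466 to 554 of 3147 against endothelial-like, from 871 of 1463 to 51 of 838 against halo/T-like and from 567 of 2171 to 165 of 2068 against myoid/fibroblast-like cells. With DESeq2 they were 677 of 2125, 211 of 2292, 720 of 1920, 695 of 3230, 56 of 2084 and 174 of 2033. Against macrophage/monocyte-like cells neither reached the fold threshold (0.96 ± 0.18 and 0.72 ± 0.15), nor did they against sperm-like cells (0.65 ± 0.21 and 0.61 ± 0.18), and Crisp4 did not against halo/T-like cells (0.73 ± 0.19). These fold changes are relative to the median gene, which TMM factors moved by 0.18 to 0.58 log2 units, so they exceed the plain CPM ratios. No member changed direction with TMM factors set to 1. With that setting, and also with DESeq2, Crisp1 was not called against halo/T-like and myoid/fibroblast-like cells. Nor was Crisp4 called against myoid/fibroblast-like cells in either setting.

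Several of these calls depended on 1 pool. Without the P42 pool, Crisp1 was not called against halo/T-like (0.80) and myoid/fibroblast-like cells (0.65), and Crisp4 not against myoid/fibroblast-like cells (0.80). Without the P42 cauda library alone, the values against myoid/fibroblast-like cells were 0.82 and 0.91, also not called. Crisp1 was called against macrophage/monocyte-like cells without P56 replicate 1 (1.09) or replicate 2 (1.16).

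The other types were compared with what free RNA of principal cells gives. The 8 secretory genes chosen for this of principal cells (Lcn8, Lcn5, Gpx5, Defb30, Cst11, Spint4, Adam7 and Rnase10) were measured in the same sums, using those with at least 100 CPM in the principal-like cells of the library. The share of Crisp1 lay within the range of these genes in 46 of 61 pairs of library and type, and that of Crisp4 in 44 of 61. The range rested on 8 genes in the caput, 4 or 5 in the corpus and 2 in the cauda. In macrophage/monocyte-like cells of P56 replicate 1 it ran from 84.1% to 86.1% in the cauda and from 75.8% to 294% in the caput. Lying within it thus also depended on its width. The ratio of Crisp1 to Crisp4 in another type was a median of 1.01 times that in the principal-like cells of the same library (0.294 to 2.16), and lay between 0.67 and 1.5 times in 50 of 61 pairs. Whether part of these UMIs was made by the other types was not tested.

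**Figure D4:**
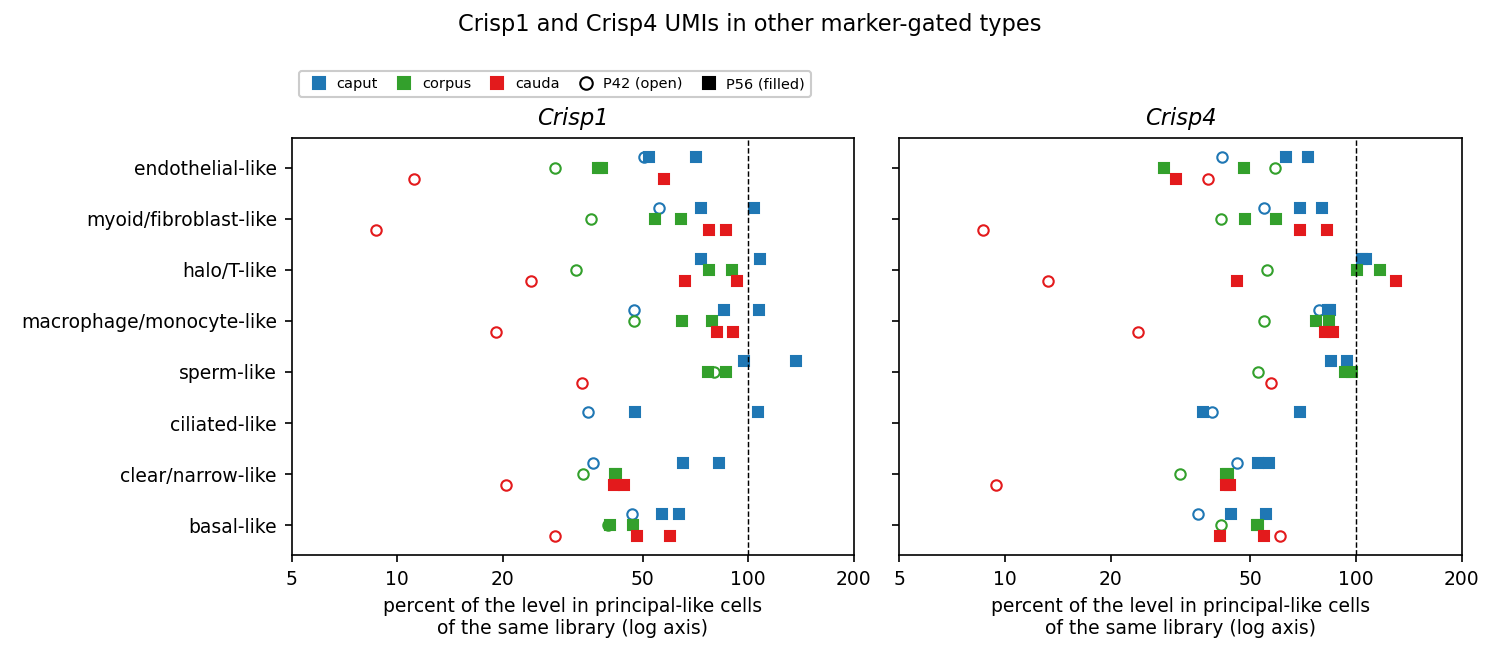
Level of Crisp1 and Crisp4 in each other gated type as a percentage of the level in principal-like cells of the same library (log axis), with 1 point per library of at least 10 cells, coloured by segment, open for P42 and filled for P56. Most points lie under the dashed line at 100%, and the P42 cauda points are the lowest for Crisp1 in all 7 types that this library held.

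Crisp1 and Crisp4 were higher at P56 than at P42 in every segment, though not every difference was called. Age cannot be told apart from batch in these comparisons, and in the cauda the principal-like gate was looser at P42 than at P56. In principal-like cells Crisp1 was 1.99 and 3.31 times as high in the caput of the P56 replicates as at P42, 1.73 and 1.70 times in the corpus and 2.01 and 2.23 times in the cauda. For Crisp4 the ratios were 1.20 and 1.43, 1.93 and 1.84, and 2.51 and 1.98. Both P56 libraries lay above the P42 library in all 6 cases.

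In the fit across all genes Crisp1 rose in the caput (log2 fold change 1.73 ± 0.29, adjusted p = 0.0298) and in the cauda (1.87 ± 0.29, adjusted p = 0.00199). In the caput the macrophage/monocyte-like cells moved the same way, from 72.9 CPM of Crisp1 at P42 to 327 and 434 CPM at P56, so the caput rise is not separated from background. The same cells rose in the corpus from 5686 to 13483 and 16167 CPM and in the cauda from 2588 to 22318 and 27376 CPM, which is more than in principal-like cells, and the part of free RNA in the rises was not tested. In the corpus Crisp1 of principal-like cells missed the threshold (1.29 ± 0.28, adjusted p = 0.0517). It was called there with the P56 replicate number as a block (adjusted p = 0.0114, over the settings that kept all libraries 9.86e-12 to 0.0905). Crisp4 rose in the corpus (1.42 ± 0.21, adjusted p = 0.0119) and in the cauda (1.96 ± 0.24, adjusted p = 0.000611) and was not called in the caput (0.72 ± 0.20, adjusted p = 0.131, edgeR). Crisp4 in macrophage/monocyte-like cells moved with these values, from 91.8 to 249 and 259 CPM in the corpus and from 7.59 to 68.6 and 51.4 CPM in the cauda. Among all 17545 genes 0.422%, 0.792% and 6.17% were called as higher at P56 in caput, corpus and cauda. The scaling matters here. TMM factors set the median gene to about 0, and with all factors at 1 that median lay lower by 0.33, 0.49 and 0.75, where the log2 fold changes were 1.40, 0.78 and 1.09 for Crisp1 and 0.39, 0.91 and 1.17 for Crisp4.

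The rise of Crisp1 in the caput was not called without the caput library of P56 replicate 2 (1.38) or without either P56 cauda library (1.73 each). By the test of the difference itself, a difference between segments in the age effect was not called in principal-like cells (adjusted p = 0.543 for Crisp1 and 0.0729 for Crisp4, with 6.91% of all genes called). For Crisp4 it was called without the cauda library of P56 replicate 2 (adjusted p = 0.0425), and without the P42 cauda library the adjusted p was 0.473. In all kept cells, a fit added after seeing the data, it was (adjusted p = 0.0379 and 0.00702). There the log2 fold changes from caput to cauda were 2.12, 1.93 and 3.32 for Crisp1 and 1.04, 2.03 and 3.30 for Crisp4, all called, where 0.823%, 2.80% and 13.1% of genes were called as higher at P56. The stromal markers moved with this result, at 427 per 10000 UMIs in the P42 cauda against 16.6 and 10.6 in P56 replicates 1 and 2. They also stood at 78.6 in the P42 corpus against 7.79 and 6.39, and at 25.2 in the P42 caput against 5.31 and 6.11. Principal-like cells numbered 333 in the P42 cauda against 2559 and 2695, 658 in the corpus against 2113 and 2276, and 1227 in the caput against 2342 and 1538. The part of the markers and cell numbers in the result was not tested. In all cells the rise of Crisp4 in the caput was not called without the caput library (0.94) or the corpus library (1.03) of P56 replicate 1, or without the corpus library of replicate 2 (1.03).

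**Figure D5:**
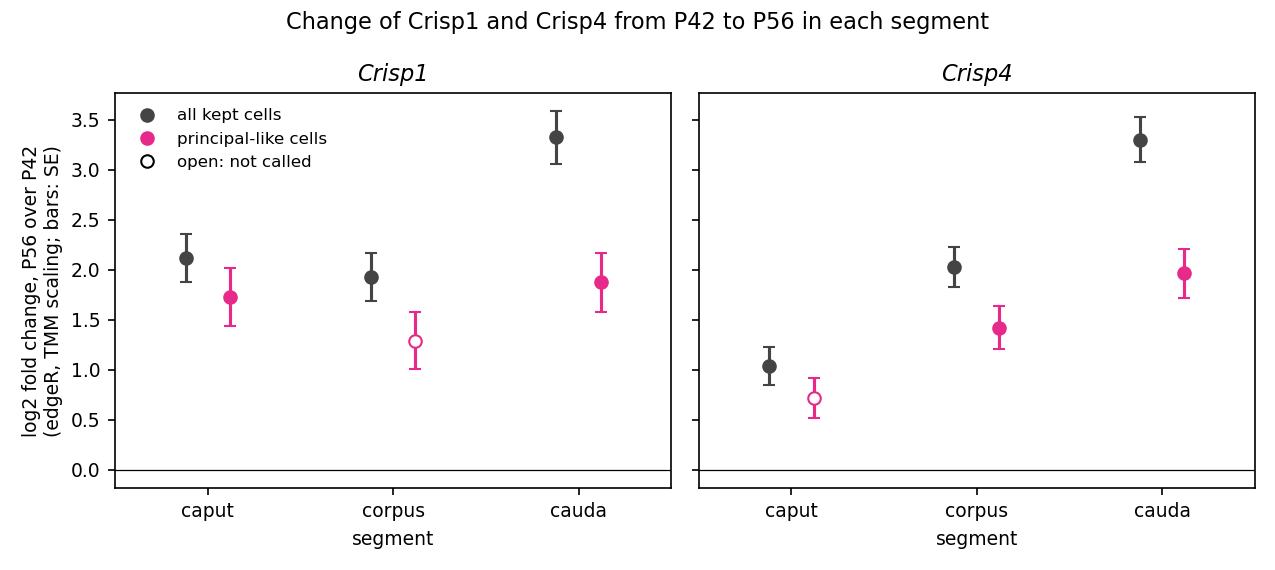
Log2 fold change from P42 to P56 of Crisp1 and Crisp4 in each segment by edgeR with TMM scaling, in all kept cells and in principal-like cells. Bars are SE and open points were not called. The points for all cells lie above those for principal-like cells in each segment, most in the cauda (3.32 against 1.87 for Crisp1).

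Crisp3 was nearly undetected. The kept cells held 100 Crisp3 UMIs (95% interval 81.4 to 122), against 2977693 of Crisp1 and 76588 of Crisp4, and 61 of them were in principal-like cells. The caput, corpus and cauda held 9, 3 and 2 UMIs at P42, 4, 10 and 26 in P56 replicate 1, and 5, 10 and 31 in P56 replicate 2. The P56 cauda libraries were thus the highest.

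In principal-like cells the counts were 1, 1 and 0 at P42, 1, 8 and 19 in P56 replicate 1 and 2, 7 and 22 in P56 replicate 2, which is up to 0.923 CPM. Caput and cauda did not overlap at P56. The cauda of P56 replicate 1 was 17.0 times as high as its caput by a counting interval from 2.70 to 705, and that of replicate 2 was 5.89 times as high (1.45 to 51.7). The fit called the difference between cauda and caput (2.98 ± 0.72, adjusted p = 0.00998, edgeR, 13.8% of genes called as higher; 3.25 without the P42 cauda library), while the P42 cauda had no UMI in 333 cells, which allows up to 1.10% of cells with a UMI by an exact interval. Between ages Crisp3 was called in all cells of the cauda alone (3.49 ± 0.75, adjusted p = 0.00665), where it was 6.74 (1.69 to 58.6) and 7.07 (1.80 to 60.9) times as high in the P56 replicates, and in no segment of principal-like cells, although in their cauda it was called with all barcodes in place of the kept cells (7.24, adjusted p = 0.0305, edgeR). The value of 7.24 is set against a P42 cauda whose kept principal-like cells held 0 Crisp3 UMIs, so its size is not read as a fold change. From caput to corpus of principal-like cells Crisp3 was not called (2.01 ± 0.78, adjusted p = 0.0699), and it was called with all barcodes (2.45), without the P42 pool (2.30) and without the P42 cauda library (2.08). In all cells the difference between cauda and caput was not called (1.55 ± 0.82, adjusted p = 0.210), and it was called without the P42 pool (2.81) and without the P42 cauda library (2.29).

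In the corpus and cauda Crisp3 kept close to a fixed proportion to Crisp1. The libraries held 22.2 to 32.6 Crisp3 UMIs per 1000000 Crisp1 UMIs, with overlapping intervals. In the caput the proportion was 341 to 3034. Of the 18 caput UMIs 4 were in principal-like cells. Since the transcripts are 91.1% identical, part of the corpus and cauda counts could be Crisp1 molecules counted as Crisp3, which was not tested.

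Other members of the CAP superfamily were less abundant than Crisp1 in the principal-like cells of every library. The list, fixed with earlier results of these data known, held Crisp2, Crispld1, Crispld2, Glipr1, Glipr1l1, Glipr1l2, Glipr1l3, Glipr2, Pi15, Pi16, R3hdml and Clec18a. Of these 12 genes 8 passed the filter on low counts in the segment comparison. From caput to corpus 0 rose and 1 fell, from corpus to cauda 0 rose and 1 fell, and from caput to cauda 1 rose and 2 fell. Over all genes 14.1% rose and 13.7% fell from caput to corpus, 6.59% rose and 7.62% fell from corpus to cauda, and 13.8% rose and 14.3% fell from caput to cauda. With 8 genes these counts are not read as a result about the list. The median log2 fold changes of the 8 were -0.04, 0.05 and 0.49, against 0.02, -0.02 and 0.00 over all genes.

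Clec18a, which joins a CAP domain to a C-type lectin domain, shared the caput with Crisp4. It lay at 23.4, 23.9 and 32.9 CPM in the caput and at 0 to 0.0623 CPM in every corpus and cauda library, and it was called against both. Crisp2, the CRISP of testis and sperm, had 1.69 to 7.41 CPM in caput, 4.73 to 8.65 CPM in corpus and 0.752 to 2.67 CPM in cauda principal-like cells. It was called as lower in the cauda than in the corpus (-2.41 ± 0.56, adjusted p = 0.0162, edgeR). The 10 sperm markers moved with it, at 0.744 to 1.02 per 10000 UMIs in corpus and 0.0728 to 0.516 in cauda principal-like cells, and their part in this was not tested. In sperm-like cells it stood at 367 ± 226 CPM (SD, n = 6 libraries) and in ciliated-like cells at 282 ± 244 CPM (n = 3, from 2.83 CPM at P42 to 390 and 454 CPM at P56), against 3.89 ± 2.86 CPM in principal-like cells. The log2 fold changes were -5.61 ± 0.30 and -5.46 ± 0.37 (adjusted p = 3.81e-26 and 1.63e-20), where 8.01% and 10.6% of genes were called as lower in principal-like cells. Ciliated-like cells also held sperm markers, at 16.1 per 10000 UMIs against 0.501 in principal-like cells (6 of 10 with UMIs), whose part in the Crisp2 level was not tested.

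The LCCL-domain genes Crispld1 and Crispld2 and the peptidase inhibitor genes Pi15 and Pi16 were higher in myoid/fibroblast-like than in principal-like cells. None of them was a marker behind the myoid/fibroblast-like gate. They averaged 70.7 ± 53.7, 131 ± 91.1, 67.3 ± 79.2 and 120 ± 171 CPM in myoid/fibroblast-like cells (SD, n = 9), and all 4 were called as higher there than in principal-like cells (log2 fold changes of -2.97 to -4.95, 11.7% of genes called). Glipr2 was higher in clear/narrow-like cells, at 17.2 ± 4.69 CPM, than in principal-like cells (-3.20 ± 0.26, adjusted p = 5.78e-17, 7.04% of genes called). Pi16 was the gene called as higher in the cauda than in the caput of principal-like cells (3.83 ± 0.79, adjusted p = 0.00433), with 51.6 CPM in the P42 cauda, where the stromal markers were high, and 1.36 and 1.59 CPM in the P56 cauda. Without the P42 cauda library the value was 2.23, also called.

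Srd5a2, a steroid 5-alpha reductase that makes dihydrotestosterone, fell at each step, from 163 to 198 CPM in the caput to 59.0 to 71.5 CPM in the corpus and 17.2 to 37.8 CPM in the cauda (-1.43 ± 0.28 and -1.04 ± 0.28, adjusted p = 0.00311 and 0.0306). Its fall from corpus to cauda was not called without the P42 cauda library (-0.70), nor without any single pool. Srd5a1, the other reductase, was highest in the corpus, at 47.5 to 58.0 CPM, and lay at 4.43 to 9.17 CPM in the cauda (-2.87 ± 0.19, adjusted p = 4.33e-05). From P42 to P56 Srd5a2 rose in the cauda (1.82 ± 0.21, adjusted p = 0.000462), and Srd5a1 was called in no segment. Of the CAP list 9 genes were tested between ages, with 0 called in the caput and corpus, where 0.473% and 0.832% of genes were called as lower, and Crispld1, Crispld2, Pi15 and Pi16 called as lower at P56 in the cauda, where 7.60% of genes were. The stromal markers moved with these 4 genes, at 108 per 10000 UMIs in P42 and 3.78 and 3.81 in P56 cauda principal-like cells, and their part was not tested.

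Genes of the channels on which CRISPs are known to act on sperm, CatSper and Trpm8, were low in principal-like cells. Of 12 such genes 5 were tested between segments. Catsper2 was the highest, at 4.20 to 9.05 CPM, and was called in no segment comparison. From caput to corpus 0 of the 5 were called, and from corpus to cauda Efcab9 was called as lower. Catsperz and Efcab9, a pair of CatSper subunits, were called as lower in the cauda than in the caput, from 0.979 to 1.72 and 0.534 to 0.936 CPM down to 0.194 to 0.764 and 0 to 0.0418 CPM, which is 2 of 5 genes where 14.3% of all genes were called as lower. The sperm markers lay at 0.212 to 1.19 per 10000 UMIs in caput and 0.0728 to 0.516 in cauda principal-like cells, and their part in this was not tested. Trpm8 did not exceed 0.267 CPM in any library. In sperm-like cells Catsperz had 24.9 ± 21.0 CPM and Efcab9 16.5 ± 12.8 CPM (n = 6).

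The genes most like each member were sought by Pearson's r of log2(CPM + 1) over the 9 libraries with all cells summed, among 7158 genes with a mean of at least 10 CPM. For Crisp1 these were Cd52 (r = 0.993), Map7d2 (0.989), Scd3 (0.989), Cpne5 (0.988) and Serpina16 (0.988). Cd52, a glycosylphosphatidylinositol-anchored sperm surface antigen of the epididymis, ran from 335 CPM in the P42 caput to 40468 CPM in the cauda of P56 replicate 1. For Crisp4 they were Scx (0.985), Gm32591 (0.984), Timm8b (0.980), Sec11c (0.979) and Prdx6 (0.971), of which Sec11c, a subunit of the signal peptidase, fell from 591 to 653 CPM in the caput to 109 to 217 CPM in the cauda. For Crisp3, with 2 to 31 UMIs per library, they included Eif1a, Slc37a1, Hbegf and Efna1 (0.979 to 0.954). The 9 libraries share 3 segments and 3 pools, so these values describe a shared segment pattern and carry no test.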

How the data were processed

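UMI counts per gene and cell were deposited for 9 libraries of a microwell single-cell assay. Per the study's methods, the authors trimmed reads, aligned them with STAR to a GENCODE mouse genome, counted them over exons and collapsed UMIs with UMI-tools. The submitters' processing notes name STAR 2.7.3a and GRCm38.p6; how reads matching several genes were treated is not given in the sources used here. The members and gene lists were chosen with earlier results of these data known.

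Cells with 300 to 4000 genes, at most 20000 UMIs and under 50% mitochondrial UMIs were kept, and cells with over 5% globin UMIs were removed. No doublet caller was run, and cells that passed several gates were set aside as mixed. A type needed UMIs of at least 3 markers and a summed level of at least 5 per 10000 UMIs and 5 times the larger of the median over cells and the library's 0.25 quantile. Principal-like cells had at least 4 of 12 epithelial genes and passed no other gate. All named types rest on these rebuilt gates.

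Counts were summed per library, over all kept cells or per type with at least 10 cells, and tested with edgeR 4.0.16 (quasi-likelihood, TMM, Benjamini-Hochberg over all genes tested). Genes were called at an adjusted p under 0.05 with a change of 1 or more on the log2 scale in either direction, and for the difference in age effect the adjusted p alone. The SE is the log2 fold change divided by the square root of F. Segments were fitted with the pool as a block, cell types with the library as a block, and age as 1 mean per segment and age, where the single P42 libraries are assumed to vary as the P56 pairs do. The pairing comes from the study's methods, which took all 3 segments from each pooled mouse, and deviations from the segment means correlated by 0.142 to 0.724 in the 9 same-pool pairs (-0.652 to 0.513 in the 18 others), which includes the age difference; between the P56 replicates alone the deviations of 2 segments correlated by 0.194, 0.0847 and 0.150. P-values of the segment fit measure how far the segment differences vary between pools (4 residual degrees of freedom). Those of the age fit measure the spread between the P56 pools alone (3 residual degrees of freedom). There, too, the segments of 1 pool count separately. Those of the cell type fit measure the spread between sums per library and type (53 residual degrees of freedom), where the segments of 1 pool count separately although they share mice. CPM values are unadjusted shares of a library's UMIs. Intervals have 95% confidence and cover counting error only. The matrix had 0 columns of cells that could not be assigned to a library.

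Named genes were the members, the CAP, ion channel, 5-alpha reductase and secretory comparison lists, and the 5 genes most correlated with each member, of which some are not reported here. DESeq2 1.42.0, other scalings, filters, gates, blocks and left-out libraries were tried as alternatives. The scripts were tested on simulated data.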

Additional observations from a re-analysis of the deposited data

Results flagged for a closer look

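Among the genes named, 5 had an age effect that differed between segments in principal-like cells by edgeR's test of the difference, and the members did not. The 5 were 4 of the 9 CAP genes tested and Srd5a2, while 0 of 5 ion channel and 0 of 8 secretory comparison genes were called. Over all 17545 genes tested, 6.91% were called. The adjusted p-values were 0.00924 for Crispld1, 0.00725 for Crispld2, 0.00976 for Pi15, 0.00498 for Pi16 and 0.0132 for Srd5a2. Crispld1, Crispld2, Pi15 and Pi16 were called as lower at P56 in the cauda (log2 fold changes of -4.26, -2.31, -5.07 and -4.33) and in no other segment. In the P42 cauda they had 9.17, 45.1, 41.3 and 51.6 CPM, and 11 of 11 stromal markers summed to 108 per 10000 UMIs in its principal-like cells, against 1.79 to 7.40 in the other libraries. The part of these markers, and of the looser gate in that library, in the result was not tested. Srd5a2 was called as higher at P56 in the cauda (1.82 ± 0.21). None of the 5 was called without the P42 cauda library, an alternative chosen after seeing the data that leaves the caput and corpus to compare (adjusted p of 0.462, 0.711, 0.715 and 0.982 for Crispld1, Crispld2, Pi15 and Pi16, and 0.442 for Srd5a2, edgeR), and that alternative removes the cauda age contrast by its construction.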

How the results depend on the processing

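In principal-like cells the segment values of Crisp1 kept their direction and call in 33 of 33 alternatives, and those of Crisp4 in 32 of 33. Without the block for the shared pool (the pairing), Crisp4 from caput to corpus was not called (-1.36), nor was its fall from corpus to cauda in all cells (-2.20). In all cells Crisp4 from caput to corpus was called with DESeq2 (-1.50), no filter (-1.50), TMM factors of 1 (-1.59), all barcodes (-1.41) and, chosen after seeing the data, without the P42 cauda library (-1.42). Leaving out a pool gave -1.73 to -1.08 for it, -2.71 to -2.05 for Crisp4 and -0.049 to 0.65 for Crisp1 from corpus to cauda (-0.049 and -0.042 without P56 replicates 1 and 2), 690 to 7448 genes called over segments in all cells (4828 in full) and 3615 to 6607 in principal-like cells (5990).

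For age, genes called in all cells numbered 691 in the caput, against 1720 with no filter, 1577 with TMM factors of 1, 273 with all barcodes and 1930 with the P56 replicate block, and 2260 in the corpus, against 3945 with TMM factors of 1. In principal-like cells the caput count of 157 became 562, 610 and 355 (no filter, TMM factors of 1, replicate block), the corpus count of 285 became 733, 1117 and 498, and the cauda count of 2416 became 4077 with TMM factors of 1. Crisp4 in the caput of all cells was not called with TMM factors of 1 (0.66) or all barcodes (0.93), nor Crisp4 in the corpus of principal-like cells with TMM factors of 1 (0.91). Crisp1 in the corpus of principal-like cells was called with DESeq2 (1.26), no filter (1.33), all barcodes (1.26), the strict gate (1.30) and the replicate block (1.29). The replicate number of the P56 pools is shared by their segments. Without single P56 libraries, Crisp4 in the caput of all cells ran from 0.94 to 1.10, Crisp1 in principal-like cells from 1.38 to 2.01 in the caput and from 1.27 to 1.31 in the corpus, and Crisp3 in the caput from -0.27 (without P56 replicate 2) to 0.999. The counts ran from 450 to 1145 (caput) and 944 to 2524 (corpus) in all cells, and from 78 to 147 and 133 to 291 in principal-like cells. Genes whose age effect differed between segments numbered 1213, with 624 to 1085 without single libraries, 65 without the P42 cauda library and 3066 in all kept cells.

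Against other cell types, DESeq2 gave Crisp1 0.78 (halo/T-like) and 0.99 (myoid/fibroblast-like) and Crisp4 0.95 (myoid/fibroblast-like), and TMM factors of 1 gave 0.73, 0.95 and 0.89, none called. The strict gate called Crisp4 against halo/T-like cells (1.17), and Crisp1 and Crisp4 against macrophage/monocyte-like (1.35 and 1.12) and sperm-like cells (1.18 and 1.05). Without the library block, no call was made for Crisp1 and Crisp4 against basal-like (1.52 and 1.54), clear/narrow-like (1.73 and 1.40), endothelial-like (2.33 and 1.21) and myoid/fibroblast-like cells (0.90 and 0.88), for Crisp1 against halo/T-like cells (1.03) and for Crisp4 against ciliated-like cells (0.64). Without the P42 cauda library the myoid/fibroblast-like values were 0.82 and 0.91. Without a pool, Crisp1 ran from 0.80 to 1.52 (halo/T-like), 0.41 to 1.16 (macrophage/monocyte-like) and 0.65 to 1.50 (myoid/fibroblast-like), and Crisp4 from 0.80 to 1.34 (myoid/fibroblast-like). Clec18a against endothelial-like cells was 1.81, and -0.16 with DESeq2. Genes called changed to 2198 with no filter against sperm-like cells (1160 in full), to 838 with TMM factors of 1 and 882 without the P42 cauda library against halo/T-like cells (1463), to 2195, 2085 and 2556 with the strict gate against halo/T-like, macrophage/monocyte-like (1296) and sperm-like cells, and to 1320 and 1324 without the block against basal-like (2344) and clear/narrow-like cells (2127). Without a pool they ran from 1485 to 2391 (ciliated-like), 2145 to 3404 (endothelial-like), 457 to 1473 (halo/T-like), 611 to 1681 (macrophage/monocyte-like) and 1096 to 2599 (myoid/fibroblast-like).

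With TMM factors of 1 the genes higher at P56 went, as a part of all called, from 174 of 691 to 118 of 1577, from 592 of 2260 to 102 of 3945 and from 2765 of 6859 to 921 of 8417 in the caput, corpus and cauda of all cells, and from 74 of 157 to 81 of 610, from 139 of 285 to 73 of 1117 and from 1083 of 2416 to 176 of 4077 in principal-like cells. Members kept their direction there. In the caput of all cells the genes higher at P56 were 441 of 968 called with DESeq2, 746 of 1720 with no filter and 893 of 1930 with the replicate block. The causes of these changes were not tested.

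Limits: there are 3 pools per segment and 1 library per segment at P42, cell types rest on rebuilt gates, free RNA reaches every type, and Crisp3 rests on 100 UMIs of a gene that is 91.1% identical to Crisp1. Age cannot be told apart from batch or pool of mice.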
